A study of Mus musculus with 12 samples.

Results

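This account is about 52 genes of mitosis and chromosome segregation in mouse CD8 T cells. They are the cyclins, kinases, spindle motors, kinetochore proteins, condensins and cytokinesis factors that divide a replicated genome between daughter cells. Members were taken from the count tables by gene symbol if they held at least 120 counts summed over the 12 libraries. All 52 were found among the 46078 genes listed, and all 52 passed the filter on low counts, which kept 14009 genes. The least abundant, Cdc25c, held 1791 counts in all.

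RNA was sequenced at day 7 from CD8 T cells of C57BL/6 spleen in 4 culture groups of 3 samples each. All groups received the cytokines IL-2 and IL-15, which support survival and division of activated CD8 T cells. The control group, named here IL-2 + IL-15, received nothing else. The RA group also received all-trans retinoic acid, a ligand of nuclear receptors, the TGFβ group also received transforming growth factor beta, and the TGFβ + RA group received both. The series title names in vitro generation of tissue-resident memory CD8 T cells as the aim. The groups are whole cultures from wild-type spleen cells, with no transgene or deletion in the labels. Samples are labelled biological replicates without naming animals, and p-values here reflect variation among these 12 libraries and nothing wider.

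Cells prepare for mitosis by making a shared set of transcripts late in the cycle. Cyclin-dependent kinase 1 with B-type cyclins then drives entry, condensins and topoisomerase II compact the chromosomes, kinetochores attach them to spindle microtubules, and the spindle checkpoint holds separase inactive until attachment is complete. In T cells these transcripts are known as markers of clonal expansion and are low in resting cells. Much of the set is transcribed under FOXM1, B-MYB and the MuvB complex, which act at a promoter element called the cell cycle genes homology region (CHR), often beside CCAAT boxes bound by NF-Y.

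Libraries held 18300206 to 33477037 counts. Markers listed for CD8 T cells were detected in every group, with 0 of 8 at 0. Their summed level was 5578 to 9834 CPM (counts scaled by library size) over the 12 libraries. The list holds Cd8a and Cd8b1 beside genes that other T cells share, such as Cd3e and Lck, so its sum does not single out CD8 T cells. Markers of B cells summed to 12.7 to 15.8 CPM in IL-2 + IL-15, 15.7 to 17.5 with RA, 28.6 to 31.01 with TGFβ and 22.5 to 26.5 with both; of these 5, Ms4a1 and Pax5 were each at 0 in 3 groups. The 2 markers of NK cells summed to 7.23 to 16.7, 16.7 to 51.03, 0.253 to 1.44 and 0.71 to 1.21 CPM in the same order, and the 2 of CD4 T cells to 64.8 to 72.9, 69.99 to 86.2, 29.6 to 35.8 and 26.3 to 32.3. Myeloid and dendritic cell markers summed to 129 to 201 CPM in IL-2 + IL-15, 223 to 378 with RA, 26.4 to 32.8 with TGFβ and 70.9 to 82.8 with both; of these 10, Clec9a was at 0 in all but the TGFβ group. Markers of gamma delta T cells (Tcrg-C1, Tcrg-C2, Tcrg-C4 and Trdc) summed to 160 to 222, 187 to 297, 452 to 493 and 642 to 730 CPM, again in that order. That sum measures transcripts and does not count gamma delta cells. Erythroid and stromal markers summed to 91.6 to 103, 75.5 to 91.4, 66.2 to 75.3 and 57.2 to 66.4 CPM. These markers moved with the groups, and their part in the results was not tested. Within groups, libraries differed by more than sampling of reads gives (3.79 to 24.0 chi-square units for each degree of freedom over genes). The highest values involved RA replicate 3 (24.0 and 20.4) and IL-2 + IL-15 replicate 1 (9.27 and 12.5 against the others of its group). TGFβ + RA replicate 3 held 323 counts of the myeloid gene Lyz2, against 5 and 1 in the other samples of that group. The annotation puts genes of the opposite strand over more than 5% of the exon bases of 9 members, from 6.6% for Nek2 to 29.3% for Kif20a, and no source used here gives whether the counting used strand.

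The mitotic transcripts were most abundant in IL-2 + IL-15 cultures and by far the lowest where TGFβ and RA were combined. The 52 members summed to 5369, 4955 and 5146 CPM in the IL-2 + IL-15 samples, 3463, 3281 and 2707 with RA, 4405, 4184 and 4101 with TGFβ, and 1275, 1357 and 1240 with both. No sample of one group overlapped with another group in this sum. Group means were 5157 ± 207 (SD, n = 3), 3150 ± 395, 4230 ± 157 and 1291 ± 60.1 CPM. In 47 of 52 members the group means fell in the order IL-2 + IL-15, TGFβ, RA, TGFβ + RA; in 3 more, Ccnb2, Cenpe and Racgap1, TGFβ was marginally above IL-2 + IL-15. For 50 members, all 3 TGFβ + RA samples were below all of the other 9, a count not made over all genes. The first principal component of the members' log2 CPM, not scaled by gene, held 99% of their variance over the 12 samples. Members with large falls weigh most in that share, and Pttg1 and Smc4 did not follow the common order of the groups. In bulk RNA, fewer dividing cells and fewer of these transcripts per cell cannot be told apart.

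**Figure D1:**
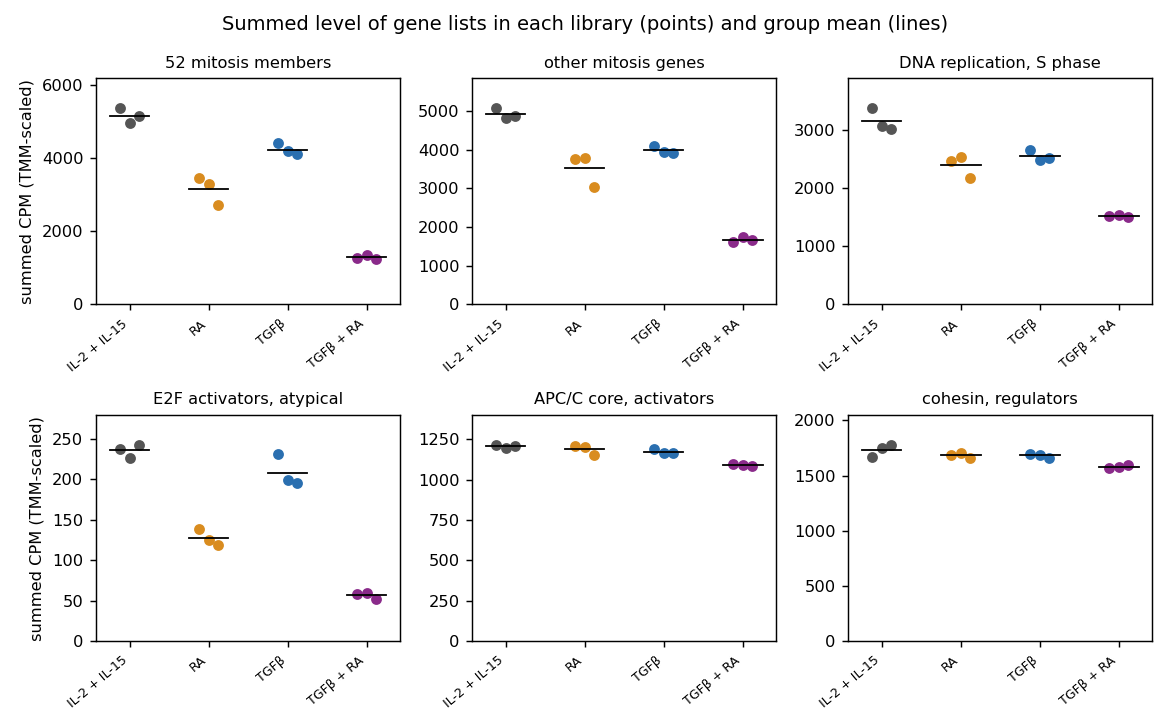
Summed level of 6 gene lists (y axis, TMM-scaled CPM) in each of the 12 libraries (points), with the group mean as a line. The 52 members fall from 4955 to 5369 CPM in IL-2 + IL-15 to 1240 to 1357 CPM in TGFβ + RA, while the lists of the anaphase-promoting complex and of cohesin move little.

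The 3 contrasts against IL-2 + IL-15 share those 3 control samples, so their values are set side by side only. With RA alone, 51 of 52 members were called lower, 0 higher and 1, Smc4, was not called (edgeR quasi-likelihood test, adjusted p under 0.05). Of all 14009 genes tested, 14.3% were called lower and 12.4% higher in that contrast. The members' median log2 fold change was -0.74, against 0 for all genes. In 51 members the 3 RA samples were all below the 3 controls, a count not made over all genes. Only 4 members fell by at least 2-fold. RA replicate 3 was the lowest RA sample for 49 members and IL-2 + IL-15 replicate 1 the highest control for 41; without RA replicate 3 the median was -0.58, and without these 2 libraries and TGFβ + RA replicate 3 it was -0.53, with 50 members lower.

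With TGFβ alone the change was smaller. Here 24 members were called lower, 0 higher and 28 were not called, against a background of 22.4% of genes lower and 20.7% higher. The median was -0.32. With library totals in place of TMM scaling, 39.7% of the genes called in this contrast were lower, against 52% with TMM, and 17 members were called lower. Values of TGFβ and control samples did not overlap, and were lower with TGFβ, for 39 members. How many of all genes separate in this way was not counted. The number of members called lower moved in both directions with the libraries fitted. It was 9 without IL-2 + IL-15 replicate 1, 11 without TGFβ replicate 2 and 13 without TGFβ replicate 3. It was 35 without RA replicate 3 or with only the 6 samples compared, and 32 with the replicate number as a block. With no filter on low counts, or without IL-2 + IL-15 replicate 1, RA replicate 3 and TGFβ + RA replicate 3, it was 31.

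With both agents 50 members were called lower than in IL-2 + IL-15, 1 higher (Smc4) and 1 was not called (Pttg1), where 32.4% of all genes were lower and 30.8% higher. The median log2 fold change was -3.24; 44 members fell by at least 4-fold, 31 by at least 8-fold and 7 by at least 16-fold. Added to TGFβ cultures, RA lowered 50 members, raised 0 and left 2 uncalled (median -2.97), with 22.7% of genes lower and 20.3% higher. Added to RA cultures, TGFβ lowered 50 and raised 2, Pttg1 and Smc4 (median -2.50), with 30.8% of genes lower and 29.4% higher.

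The effect of RA differed with TGFβ for all 52 members at the threshold, the weakest being Smc4 (0.52 ± 0.17, adjusted p = 0.0445, edgeR), which lost its call in 10 of the 12 fits that leave out a library. The interaction, which is the log2 fold change of RA in the presence of TGFβ minus that in its absence, was called below 0 for 50 members and above 0 for 2. Among all genes 12.3% were called below 0 and 6.95% above. The members' median interaction was -2.19, so the typical member fell further with both agents than the sum of its log2 changes with each alone. The lowest values were -3.07 for Cenpf, -3.0 for Hmmr and -2.97 for Nuf2.

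**Figure D2:**
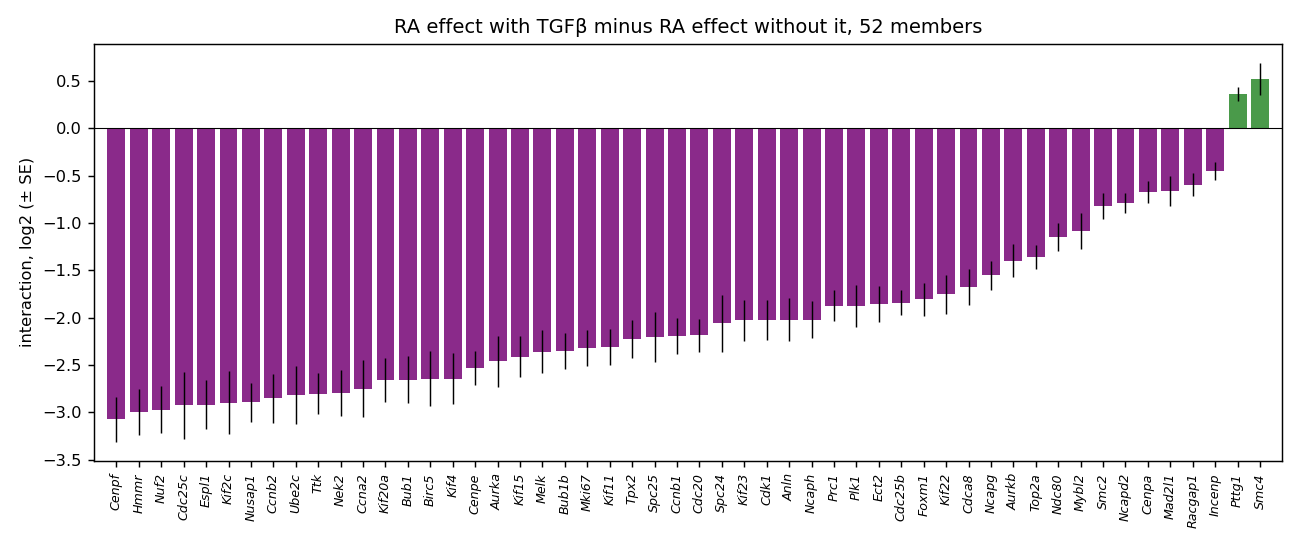
Interaction of TGFβ and RA on the log2 scale (y axis, bars ± SE) for each of the 52 members (x axis, sorted; 3 samples per group; purple below 0, green above). Bars reach from -3.07 for Cenpf to 0.52 for Smc4, and 50 of the 52 are below 0.

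The transcription factors of the programme moved with it. Foxm1 was at 102, 88.6 and 91.2 CPM in the IL-2 + IL-15 samples, 52.3, 45.4 and 34.3 with RA, 71.9, 66.7 and 71.03 with TGFβ and 9.74, 10.2 and 8.17 with both. Its 4 groups did not overlap. Foxm1, on chromosome 6 at 128362967 to 128376146 (GRCm38), encodes the forkhead factor that activates late cell cycle genes. It had the largest RA effect of all members, -1.09 ± 0.12 (SE, adjusted p = 1.56e-05, edgeR), against -0.43 ± 0.11 (SE, adjusted p = 0.00803, edgeR) with TGFβ and -3.32 ± 0.13 (SE, adjusted p = 2.45e-10, edgeR) with both, a level 10.01-fold lower than in IL-2 + IL-15. Mybl2, which encodes B-MYB, changed by -0.90 with RA, -0.42 with TGFβ and -2.40 with both on the log2 scale.

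All 10 members of mitotic entry were called lower with RA and with both agents, against 14.3% and 32.4% of all genes. With TGFβ 5 of 10 were called lower, against 22.4% of all genes, and 9 had a log2 fold change below 0. The level of Cdc25b was 329.9, 315 and 380.2 CPM in IL-2 + IL-15, 249, 202 and 225 with RA, 266, 241 and 227 with TGFβ and 44.99, 48.2 and 41.4 with both. Cdc25b, a phosphatase that activates cyclin-dependent kinases, was the most abundant member per length in IL-2 + IL-15, at 91.6 CPM per kilobase of exon. Controls held 111, 83.9 and 75.8 CPM of Ccna2, RA samples 52.05, 48.2 and 29.5, TGFβ samples 59.5, 61.8 and 66.4 and TGFβ + RA samples 4.02, 5.71 and 3.42. The TGFβ + RA samples of Ccna2 were all under 6 CPM, far from every other sample. Ccna2, on chromosome 3 at 36564865 to 36572150, encodes cyclin A2, which works in S phase and at entry into mitosis; opposite-strand genes cover 12.5% of its exon bases. Its change was -1.06 ± 0.19 (SE, adjusted p = 0.000848, edgeR) with RA and -4.34 ± 0.24 (SE, adjusted p = 3.2e-09, edgeR) with both, or 20.2-fold lower. Its call with TGFβ alone (-0.53 ± 0.18) did not hold with IL-2 + IL-15 replicate 1 left out (adjusted p = 0.151, edgeR). The call was also lost with any 1 TGFβ sample left out, with DESeq2, and with glmTreat against a minimum change of 1.5-fold. Ccnb2 stood at 67.2, 54.4 and 57.4 CPM in the control samples, at 40.95, 38.3 and 24.1 with RA, at 60.4, 62.2 and 61.1 with TGFβ and at 3.81, 6.34 and 4.19 with both agents. For Ccnb2, the cyclin B2 gene, TGFβ and control samples overlapped (0.04 ± 0.16), and the RA and TGFβ + RA samples were lower. The partner kinase gene Cdk1 changed by -3.14 and Ccnb1 by -3.22 with both agents. Among the mitotic kinases, the log2 changes with both were -4.0 for Nek2 (centrosome separation), -3.17 for Aurka (spindle assembly) and -2.61 for Plk1 (mitotic entry and exit).

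Of the 9 chromosome structure members, 8 were called lower with both agents and 1, Smc4, higher. For Top2a, the IL-2 + IL-15 samples held 660.5, 624 and 635 CPM, those with RA 394, 383 and 298, those with TGFβ 489.8, 479 and 468 and those with both 97.2, 116 and 101. Top2a, which encodes the topoisomerase that untangles sister chromatids, changed by -0.84 ± 0.09, -0.42 ± 0.09 and -2.61 ± 0.10 (SE, adjusted p = 1e-10, edgeR) with RA, TGFβ and both. Every group of Top2a was separate from the others. Mki67 was at 608, 567 and 614 CPM in the IL-2 + IL-15 samples, 379, 332 and 262 with RA, 434, 410.0 and 392 with TGFβ and 38.7, 55.6 and 39.9 with both. Mki67 encodes Ki-67, the surface protein of mitotic chromosomes used as a proliferation marker; its changes were -0.88 ± 0.13, -0.53 ± 0.13 and -3.73 ± 0.15 (SE, adjusted p = 1.97e-10, edgeR).

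Condensin is a ring of the ATPase subunits SMC2 and SMC4 closed by one of 2 sets of non-SMC subunits. The level of Smc4 was 346, 441 and 421 CPM in IL-2 + IL-15, 256, 312 and 390.0 with RA, 427, 454 and 433 with TGFβ and 509, 493 and 497 with both. Smc4, on chromosome 3 at 69004738 to 69034623, was thus highest with both agents and lowest with RA, where its samples spread widely and overlapped with the controls. It was the only member called higher with both than in IL-2 + IL-15 (0.31 ± 0.12 (SE, adjusted p = 0.0341, edgeR)), but not with IL-2 + IL-15 replicate 1 left out (log2 fold change 0.21, adjusted p = 0.161) or with any 1 TGFβ + RA sample left out (adjusted p 0.0601 to 0.0766). Against RA alone it was higher by 0.64 ± 0.12 (adjusted p = 0.000388, edgeR). With RA against IL-2 + IL-15 it was -0.33 ± 0.12 (SE, adjusted p = 0.0546, edgeR), and it was called lower in 6 of the alternative settings, such as without RA replicate 3 (-0.49, adjusted p = 0.00131). Controls held 92.1, 92.7 and 92.5 CPM of Smc2, RA samples 69.2, 73.5 and 52.1, TGFβ samples 84.95, 75.8 and 77.7 and TGFβ + RA samples 34.03, 31.5 and 29.5. Smc2, its partner, fell (-1.55 ± 0.10 (SE, adjusted p = 2.03e-08, edgeR) with both). The condensin I subunit genes changed by -1.59 (Ncapd2), -2.50 (Ncapg) and -3.54 (Ncaph), all called lower. Ncaph, the subunit that closes the ring, also had the lowest TGFβ value of all members, -0.59 ± 0.12 (SE, adjusted p = 0.00141, edgeR). Of the condensin II subunit genes, which are not members, Ncapg2 changed by -3.20, Ncaph2 by -0.41 and Ncapd3 by -0.38 with both agents, all called lower. In TGFβ + RA the level per kilobase of exon was 95.9 CPM for Smc4, against 26.5 for Pttg1 and 14.2 for Incenp, the next in order.

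**Figure D3:**
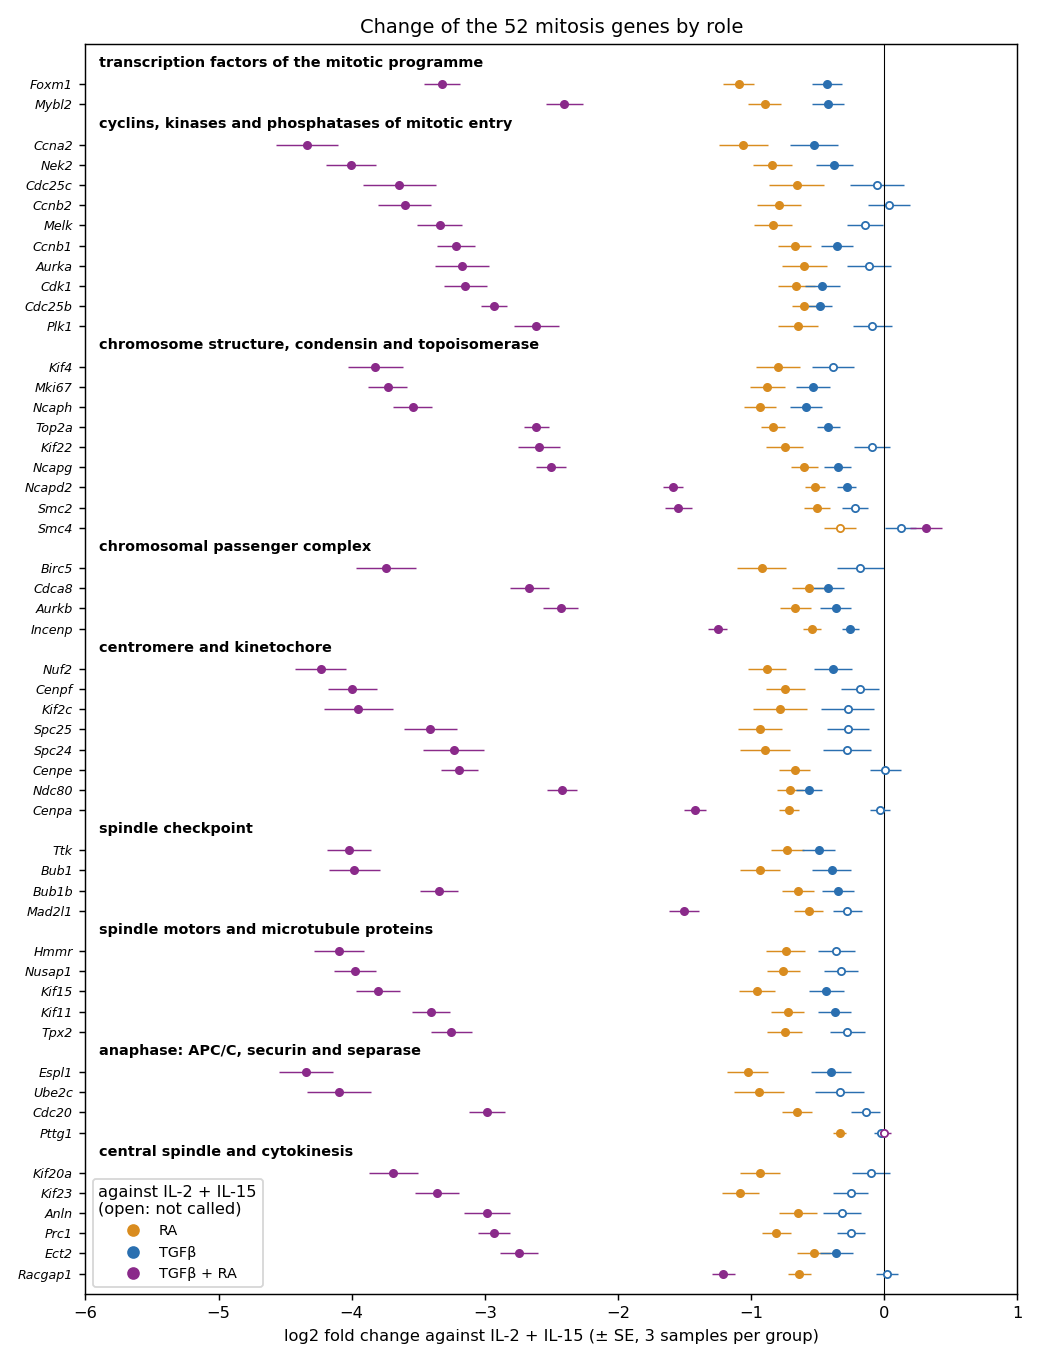
Log2 fold change against IL-2 + IL-15 (x axis, ± SE, 3 samples per group) of each of the 52 members (y axis, grouped by role), with RA, TGFβ or both; filled points were called at an adjusted p under 0.05. With both agents 44 members lie at -2.40 or below, 6 between -1.59 and -1.21, and Pttg1 and Smc4 at 0.00 and 0.31.

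The chromosomal passenger complex corrects faulty attachments and acts in cytokinesis. Incenp stood at 153, 142 and 146 CPM in the control samples, at 108, 105 and 88.7 with RA, at 129, 118 and 122 with TGFβ and at 61.6, 63.5 and 59.9 with both agents. Incenp, its scaffold, fell in all 3 contrasts against IL-2 + IL-15, with log2 fold changes of -0.54, -0.25 and -1.25. For Aurkb, the IL-2 + IL-15 samples held 76.6, 65.5 and 67.2 CPM, those with RA 48.9, 47.7 and 34.97, those with TGFβ 61.2, 50.3 and 51.01 and those with both 14.4, 12.7 and 11.9. Aurkb, its kinase, changed by -2.43 with both, and Birc5 (survivin) by -3.74. The scaffold was therefore reduced least of the 4 subunit genes, with Cdca8 (borealin) at -2.66 ± 0.14.

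Centromere and kinetochore genes all fell with RA and with both. Cenpa was at 123, 106 and 117 CPM in the IL-2 + IL-15 samples, 78.8, 66.9 and 65.1 with RA, 117, 115 and 106 with TGFβ and 45.6, 43.4 and 40.4 with both. Cenpa encodes the centromeric histone H3 variant and is loaded once per cycle; its levels with TGFβ overlapped with the controls (-0.03 ± 0.08), and its change with both was -1.42. The level of Cenpe was 75.05, 69.8 and 78.6 CPM in IL-2 + IL-15, 54.1, 48.2 and 37.8 with RA, 80.3, 73.4 and 71.3 with TGFβ and 7.62, 9.82 and 6.77 with both. Cenpe, a kinetochore motor, also overlapped with the controls with TGFβ (0.01 ± 0.12) and changed by -3.19 ± 0.14 (SE, adjusted p = 4.24e-10, edgeR) with both. Nuf2 and Ndc80 encode partners in the microtubule-binding NDC80 complex. Controls held 40.3, 33.8 and 34.6 CPM of Nuf2, RA samples 21.98, 22.4 and 14.5, TGFβ samples 30.7, 26.2 and 26.4 and TGFβ + RA samples 1.48, 2.35 and 1.77. Ndc80 stood at 27.8, 25.6 and 26.4 CPM in the control samples, at 16.9, 17.9 and 13.9 with RA, at 19.03, 17.4 and 17.5 with TGFβ and at 5.29, 5.33 and 4.30 with both agents. Both were called lower with TGFβ alone (-0.38 ± 0.14 and -0.56 ± 0.10), but Nuf2 lost that call under 8 of the 20 alternatives, among them library totals and leaving out any 1 control sample, and Ndc80 under glmTreat. With both agents Nuf2 changed by -4.23 ± 0.19 and Ndc80 by -2.42 ± 0.11. The SPC24 and SPC25 subunit genes lay between them at -3.23 ± 0.23 and -3.41 ± 0.20. For Cenpf, the IL-2 + IL-15 samples held 74.1, 78.6 and 78.9 CPM, those with RA 52.05, 49.7 and 36.6, those with TGFβ 68.8, 69.3 and 65.95 and those with both 3.02, 6.71 and 4.19. Cenpf, a large protein of the outer kinetochore, changed by -3.99 ± 0.18 (SE, adjusted p = 7.17e-10, edgeR) with both.

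The 4 spindle checkpoint members all fell with both agents, by log2 fold changes of -4.02 (Ttk, the MPS1 kinase), -3.98 (Bub1), -3.34 (Bub1b) and -1.5 (Mad2l1). Bub1b was at 89.9, 79.2 and 81.3 CPM in the IL-2 + IL-15 samples, 60.6, 57.9 and 41.1 with RA, 71.8, 63.99 and 61.5 with TGFβ and 7.41, 9.54 and 7.47 with both. The level of Mad2l1 was 66.6, 55.3 and 53.1 CPM in IL-2 + IL-15, 43.4, 42.6 and 31.97 with RA, 51.3, 46.4 and 46.5 with TGFβ and 22.2, 20.5 and 19.2 with both. For each of them the TGFβ + RA samples were below all of the others. Mad2l1, which encodes the MAD2 protein that blocks the anaphase-promoting complex, kept more of its level than its checkpoint partners. Its TGFβ value was not called (-0.28 ± 0.11 (SE, adjusted p = 0.0517, edgeR)). Several alternatives called it lower, among them the replicate block, leaving out RA replicate 3 and fitting only the 6 samples compared.

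All 5 spindle motors and microtubule proteins fell by more than 3 on the log2 scale with both agents. Controls held 151, 139 and 139.6 CPM of Kif11, RA samples 99.8, 91.98 and 67.6, TGFβ samples 121, 108 and 103 and TGFβ + RA samples 11.01, 15.8 and 13.1. Kif11 is the motor that pushes spindle poles apart, and its change was -3.40 ± 0.14 (SE, adjusted p = 3.35e-10, edgeR). Tpx2 stood at 107, 95.4 and 92.9 CPM in the control samples, at 67.9, 62.8 and 44.9 with RA, at 84.3, 79.99 and 79.2 with TGFβ and at 9.16, 12.6 and 8.79 with both agents. Tpx2, an activator of Aurora A on the spindle, changed by -3.25 ± 0.15 (SE, adjusted p = 8.37e-10, edgeR). For Hmmr, the IL-2 + IL-15 samples held 50.4, 47.1 and 50.6 CPM, those with RA 34.4, 33.2 and 20.8, those with TGFβ 38.1, 39.9 and 37.6 and those with both 2.28, 3.61 and 2.54. Hmmr, a spindle-associated protein, had the lowest TGFβ + RA value against RA alone, -3.36 ± 0.19 (SE, adjusted p = 1.07e-08, edgeR).

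The 4 anaphase members ranged from -4.34 to 0.00 with both agents. Espl1 encodes separase, the protease that cuts cohesin, and Pttg1 encodes securin, which holds separase inactive until anaphase. Espl1 was at 85.98, 67.98 and 77.2 CPM in the IL-2 + IL-15 samples, 41.8, 41.9 and 29.6 with RA, 61.7, 57.6 and 55.98 with TGFβ and 2.86, 5.40 and 2.72 with both. Espl1, on chromosome 15 at 102296266 to 102324357, had the lowest change with both agents of all members, -4.34 ± 0.20 (SE, adjusted p = 7.3e-10, edgeR), or 20.3-fold lower. Its TGFβ value (-0.40 ± 0.15 (SE, adjusted p = 0.0496, edgeR)) lost its call under 11 of the 20 alternatives, glmTreat included. The level of Pttg1 was 53.3, 55.1 and 50.7 CPM in IL-2 + IL-15, 40.8, 42.98 and 42.2 with RA, 51.7, 53.5 and 51.1 with TGFβ and 52.9, 55.1 and 51.1 with both. The 3 RA samples of Pttg1, on chromosome 11 at 43420250 to 43426251, were below all of the others, and the other 3 groups overlapped. Its changes were -0.34 ± 0.05 (SE, adjusted p = 0.000229, edgeR) with RA, -0.02 ± 0.05 (SE, adjusted p = 0.712, edgeR) with TGFβ and 0.00 ± 0.05 (SE, adjusted p = 0.969, edgeR) with both. Pttg1 was thus lowered by RA without TGFβ and not called with RA in its presence (0.03 ± 0.05 (SE, adjusted p = 0.686, edgeR)), and that difference was itself called (0.36 ± 0.07 (SE, adjusted p = 0.00257, edgeR)). The other 2 members of this group act with the anaphase-promoting complex: Cdc20, its activator, changed by -2.98 and Ube2c, its ubiquitin-conjugating enzyme, by -4.10 with both.

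**Figure D4:**
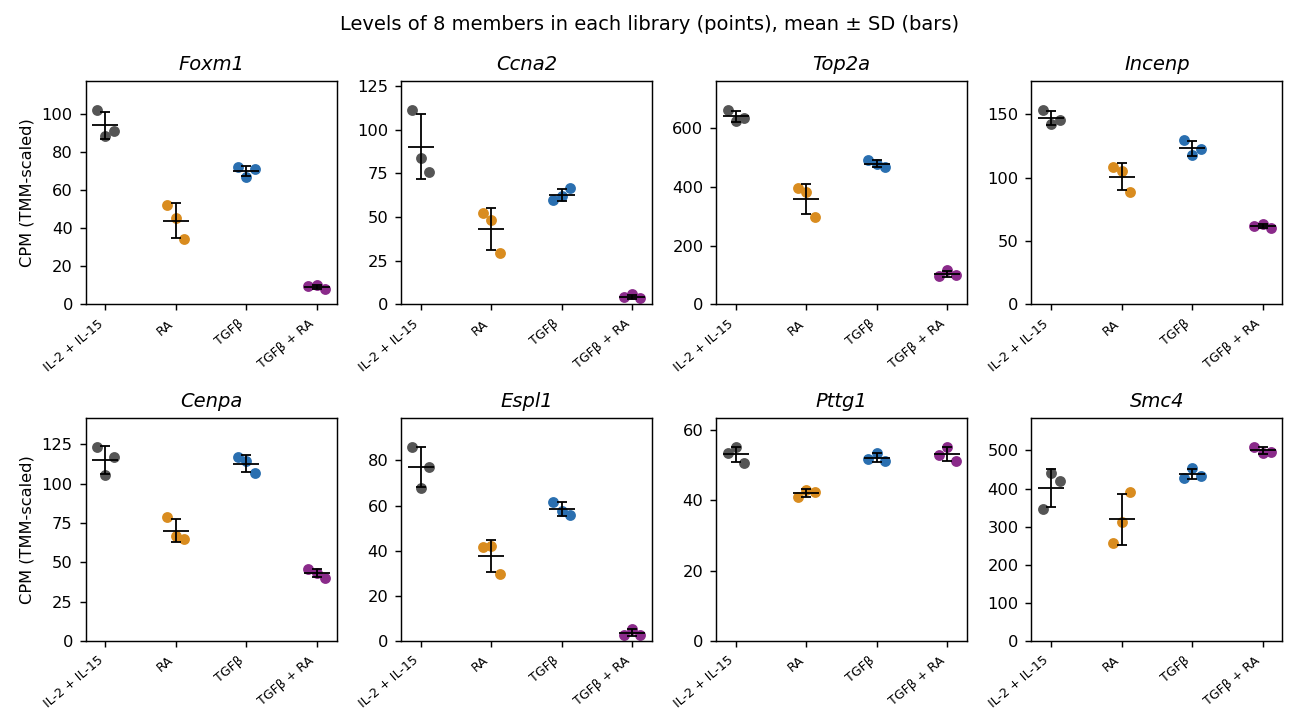
Level of 8 members (y axis, TMM-scaled CPM from 0) in each library (points), with mean ± SD of the 3 samples of a group (bars). Foxm1, Ccna2, Top2a and Espl1 are far lowest in TGFβ + RA, Incenp and Cenpa fall less, Pttg1 is at 51.1 to 55.1 CPM there and Smc4 is at 493 to 509 CPM, above its controls.

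All 6 members of the central spindle and cytokinesis fell with RA and with both. Controls held 183, 178 and 179 CPM of Racgap1, RA samples 132, 115 and 101, TGFβ samples 202, 169.8 and 177 and TGFβ + RA samples 78.2, 81.3 and 74.3. Racgap1 and Kif23 encode the subunits of centralspindlin, which bundles the midzone microtubules. Kif23 stood at 60.3, 55.8 and 54.8 CPM in the control samples, at 31.2, 29.03 and 20.4 with RA, at 46.8, 48.6 and 48.1 with TGFβ and at 4.66, 7.09 and 4.56 with both agents. With both agents the change was -1.21 ± 0.09 for Racgap1 and -3.36 ± 0.16 for Kif23. TGFβ alone left both uncalled (0.02 ± 0.08 and -0.25 ± 0.13), and with RA alone the changes were -0.64 ± 0.08 and -1.08 ± 0.14. For Prc1, the IL-2 + IL-15 samples held 91.3, 78.9 and 84.3 CPM, those with RA 56.5, 50.2 and 38.4, those with TGFβ 73.9, 73.2 and 67.5 and those with both 10.7, 12.2 and 10.3. Prc1, the microtubule crosslinker of the midzone, changed by -2.93 with both.

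Sorted by their change with both agents, the members fell into 44 at -2.40 or below and 8 at -1.59 or above, with none between. The 8, singled out after their values were seen, were Ncapd2, Smc2, Mad2l1, Cenpa, Incenp, Racgap1, Pttg1 and Smc4. Several are subunits of a complex in which another member fell much further: Racgap1 beside Kif23, Incenp beside Birc5, Pttg1 beside Espl1, and Smc4 and Smc2 beside Ncaph. Of the 8, 6 were also called lower with both agents, and all but Smc4 with RA alone.

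Other genes of the pathway are described by counts and medians from lists made for this account. Among all genes tested, 14.3% were called lower and 12.4% higher with RA, and 22.4% and 20.7% with TGFβ. The shares with both were 32.4% and 30.8%. Of 82 further mitosis genes, 71 were called lower and 0 higher with RA, 27 and 0 with TGFβ, and 78 and 0 with both (median -2.48); examples with both are Lmnb1 (-2.18), Cit (-3.41), Knstrn (-2.43) and Depdc1b (-4.22). Of 48 genes of DNA replication and S phase, 39 were lower and 1 higher with RA, 31 and 1 with TGFβ, and 45 and 1 with both, with a median of -1.18 with both against -3.24 for the members. Cdc6 (replication licensing) changed by -4.23, Uhrf1 (maintenance of DNA methylation) by -3.89, Pole (a replicative polymerase) by -2.09 and Mcm3 (a helicase subunit) by -1.66. The interaction was called below 0 for 28 of these 48 (median -0.43) and for 65 of the 82 mitosis genes (median -1.53). Over all genes tested that share was 12.3%, with 6.95% called above 0.

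The E2F list held 5 genes, all lower with both agents. E2f2 fell from 136.9 ± 8.22 CPM (SD, n = 3) in IL-2 + IL-15 to 57.7 ± 5.91 with RA and 22.8 ± 3.00 with both, and was 134.3 ± 14.8 with TGFβ. The atypical repressors E2f8 and E2f7 changed by -4.37 and -3.61 with both, and E2f1 by -1.0. With both agents, 32.4% of all genes tested were called lower and 30.8% higher. Of 12 genes of the DREAM complex, MuvB core and pocket proteins, 7 were lower and 0 higher (median -0.24). Among 14 genes of the anaphase-promoting complex, 7 were lower and 3 higher (median -0.11), led by its inhibitor Fbxo5 (-1.93), and among 9 cohesin genes 5 were lower and 2 higher (median -0.11). Of 10 tested cell cycle inhibitors, D-type cyclins and their kinases, 8 were lower and 1 higher with both: Cdk4 changed by -0.63, Cdk6 by -0.85, Ccnd3 by -0.67 and Ccnd2 by -0.70. Of the 5 inhibitors among them, Cdkn1a (p21) changed by -1.75, Cdkn2c by -1.69 and Cdkn2d by -0.23, Cdkn2a was called lower at under 1 CPM in every group, and Cdkn1b (p27) rose by 0.40 (adjusted p = 6.14e-05, edgeR). The remaining D-type cyclin gene, Ccnd1, was not called with both (0.535 ± 0.463 (SE, adjusted p = 0.33, edgeR)). In TGFβ + RA it was called lower than with TGFβ (-3.37) and higher than with RA (1.68).

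Promoter sequence was not used in choosing the members. The CHR and CCAAT box are already known from much of this set, so their shares describe the list and are not a result of these libraries. RefSeq promoters on GRCm38.p6, from 250 bases before to 50 after a transcript's start, were found for 43 of the 52 members (45 promoters) and 32851 promoters in all. A CHR was counted where TTTGAA or TTCGAA occurred on either strand, and a CCAAT box where CCAAT did; matches of the 2 motifs can share at most 1 base. A CHR was in 34 of 45 member promoters (75.6%) against 19.2% of all promoters, a CCAAT box in 73.3% against 37.4%, and both in 66.7% against 7.52%. Counted within 100 bases before to 50 after the start, the shares with both were 55.6% and 2.09%. An E2F site (TTTGGCGC or TTTCCCGC, either strand) was in 3 of 45 member promoters (6.67%) against 1.56% of all. The 95% binomial interval of the member share, 1.4% to 18.3%, includes the share of all promoters.

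Members with a large and with a small fall both held the motifs. Among members at -2.40 or below with both agents, 28 of 37 with a promoter held a CHR and 6 held neither motif; among the 8 with the smaller change, 4 of 6 with a promoter held a CHR and 2, Mad2l1 and Pttg1, held neither. The window of Pttg1 lies wholly within that gene's span in GENCODE. The promoters printed here are those of Ccnb2 (chr9:70421505-70421804, minus strand) and Espl1 (chr15:102296043-102296342, plus strand), with both motifs and a large fall, Racgap1 (chr15:99651607-99651906, minus strand), with both motifs and a small fall, and Nuf2 (chr1:169531415-169531714, minus strand), with neither and a large fall. Capitals mark CHR and CCAAT matches on either strand, read 5′ to 3′ on the strand of the gene.
Ccnb2: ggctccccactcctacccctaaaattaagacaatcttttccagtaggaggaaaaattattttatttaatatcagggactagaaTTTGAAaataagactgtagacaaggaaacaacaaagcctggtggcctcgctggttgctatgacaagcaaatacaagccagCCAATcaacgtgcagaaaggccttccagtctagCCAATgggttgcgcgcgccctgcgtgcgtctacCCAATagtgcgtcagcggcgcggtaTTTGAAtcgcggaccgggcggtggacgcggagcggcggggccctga
Espl1: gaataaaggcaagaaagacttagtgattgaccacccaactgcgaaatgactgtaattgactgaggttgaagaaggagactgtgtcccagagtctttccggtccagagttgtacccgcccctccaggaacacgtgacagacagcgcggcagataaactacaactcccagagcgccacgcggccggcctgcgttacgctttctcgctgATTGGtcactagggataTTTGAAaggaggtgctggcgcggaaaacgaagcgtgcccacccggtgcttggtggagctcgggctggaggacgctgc
Racgap1: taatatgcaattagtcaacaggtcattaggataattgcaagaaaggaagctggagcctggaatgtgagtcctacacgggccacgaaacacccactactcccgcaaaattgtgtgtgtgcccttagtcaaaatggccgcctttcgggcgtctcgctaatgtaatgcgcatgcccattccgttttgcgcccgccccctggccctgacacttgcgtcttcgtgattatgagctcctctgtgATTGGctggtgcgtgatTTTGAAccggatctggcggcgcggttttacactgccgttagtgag
Nuf2: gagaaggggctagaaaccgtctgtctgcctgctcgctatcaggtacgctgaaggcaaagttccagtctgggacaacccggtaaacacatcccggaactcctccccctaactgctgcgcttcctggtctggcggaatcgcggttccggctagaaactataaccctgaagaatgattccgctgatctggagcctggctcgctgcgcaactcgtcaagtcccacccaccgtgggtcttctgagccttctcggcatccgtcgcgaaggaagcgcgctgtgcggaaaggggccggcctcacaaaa

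In Ccnb2, 3 CCAAT boxes begin 87, 54 and 21 bases before the start and a CHR begins 4 bases after it, with another 167 bases before. Espl1 holds a reverse-strand CCAAT box at 44 and a CHR at 27 bases before the start. Racgap1 holds the same arrangement, 12 bases before and 5 after. Their changes with both agents were -3.60 ± 0.20, -4.34 ± 0.20 and -1.21 ± 0.09, and that of Nuf2 was -4.23 ± 0.19. A match describes letters only; binding was not measured.

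**Figure D5:**
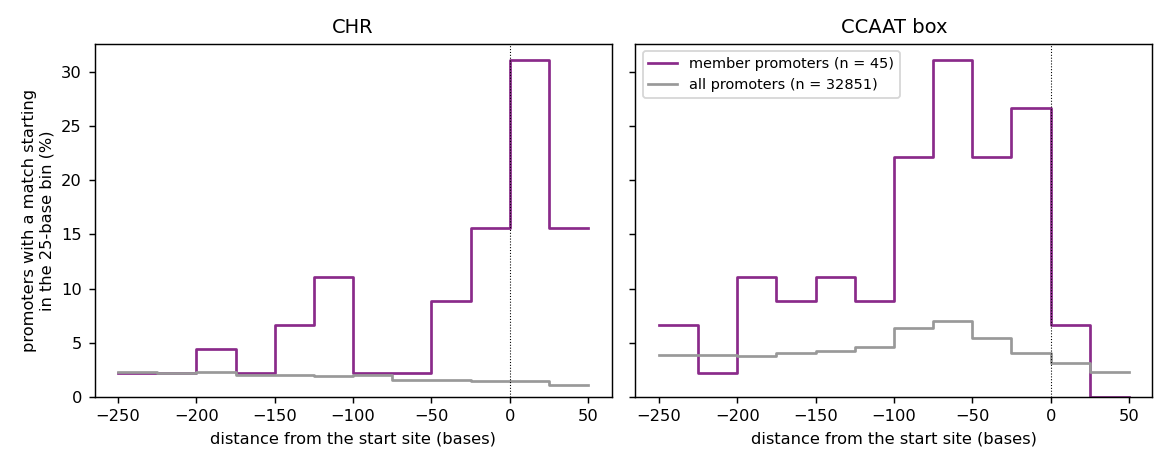
Share of promoters (y axis, %) with a CHR or CCAAT match starting in each 25-base bin by distance from the start site (x axis, bases), for the 45 member promoters and all 32851. CHR matches of members peak just after the start, at 31.1% of promoters in the first 25 bases against 1.43% of all, and CCAAT matches peak at 75 to 50 bases before it, at 31.1% against 6.99%.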

How the data were processed

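RNA was sequenced from 12 samples in 4 groups of 3 with an Illumina TruSeq stranded mRNA kit, per the labels. The authors deposited whole-number counts of reads per gene, made with STAR and featureCounts on GRCm38, per the submitters' processing notes. Versions, the annotation, the strand setting and the treatment of multiply mapped reads are not given in sources used here. Identifiers were matched to GENCODE for GRCm38 (98.2%).

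In R 4.3.3 with edgeR 4.0.16, low genes were dropped (filterByExpr, group-wise minimum count 10), libraries scaled by TMM and counts fitted in 1 quasi-likelihood model of all 12 samples (8 residual degrees of freedom). P-values were Benjamini-Hochberg adjusted over 14009 genes and called under 0.05. CPM are TMM-scaled, and each SE was derived from the log2 fold change and its F statistic. The script was tested on simulated data. Members and lists were chosen with earlier results of these data known. Named genes are the most abundant of each role, the 3 highest and 3 lowest changes per contrast, and exceptions to the majority; others are named where a role is described. Alternatives were other scalings and filters, DESeq2 1.42.0, glmTreat, a replicate block, left-out libraries and fits of 6 samples.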

Additional observations from a re-analysis of the deposited data

Results flagged for a closer look

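The effect of RA differed between cultures without and with TGFβ, by the interaction term of the edgeR model, in the whole set of mitosis members: 50 had a lower RA effect with TGFβ and 2 a higher one. The lowest interaction values on the log2 scale were -3.07 for Cenpf, -3.0 for Hmmr and -2.97 for Nuf2. Incenp had the value nearest 0 among those called below it, -0.46. Pttg1 (0.36) and Smc4 (0.52) were the 2 called above 0. Groups of 3 samples are too small for a test of single outlying samples.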

How the results depend on the processing

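Across the 20 alternatives, 50 members stayed called lower with TGFβ + RA than with IL-2 + IL-15 and than with TGFβ. Against a minimum change of 1.5-fold (glmTreat), members called lower were 6 with RA, 0 with TGFβ, 47 for TGFβ + RA against RA and 43 for the interaction, and the members called higher became 0 in each contrast. Leaving out 1 library gave 9 to 35 members lower with TGFβ, 0 to 1 higher with both against IL-2 + IL-15, and 1 to 2 above 0 in the interaction. Smc4 was called higher in TGFβ + RA than in TGFβ, as 1 member, in 2 settings. These were the fit without IL-2 + IL-15 replicate 1, RA replicate 3 and TGFβ + RA replicate 3, and that of only the 6 samples compared. With library totals in place of TMM the TGFβ count was 17, and the share of called genes that were lower in that contrast went from 52% to 39.7%. Sign changes under an alternative were limited to members with a value near 0 that was not called in either fit. With TGFβ they were Racgap1 (-0.06 to 0.07 on leaving out 1 library), Ccnb2 (-0.02 to 0.13), Cenpe (to -0.03 and -0.04), Cenpa (to 0.01, 0.02 and 0.03), Cdc25c (to 0.01 and 0.02), Pttg1 (to 0 and 0.04) and Aurka (to 0). With both agents Pttg1 ranged from -0.03 to 0.03 against IL-2 + IL-15 and from 0 to 0.06 against TGFβ on leaving out 1 library. The cause of these changes was not tested.

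The labels do not say that a replicate number marks a shared animal, batch or day, so the numbers were not taken as pairs. Deviations of same-numbered samples correlated at -0.004 to 0.341, with 10 of 18 pairs above 0.1, and those of other numbers at -0.301 to 0.163, with 1 of 36 above 0.1. Within each other group, a sample correlated best with its own number in 29 of 36 cases, and in all of them for 6 of the 12 samples, which is a hint of pairing from the data and not the design. With the replicate number as a block, 32 members were lower with TGFβ and Smc4 was called lower with RA; the other counts did not change. With both agents the SE of the log2 fold change was largest for Cdc25c (0.275), the member with the lowest level in TGFβ + RA (0.676 CPM), and smallest for Pttg1 (0.049).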
